A study of Mus musculus with 28 samples.

Results

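The haemoglobin and erythroid genes measured here are Hba-a1 and Hba-a2, which encode the adult alpha globin chains, Hbb-bs and Hbb-bt, which encode the adult beta globin chains, and Alas2, which encodes the erythroid form of the first enzyme of haem synthesis. They were taken by name, 5 of the 55414 genes in the deposited tables, and the alpha copies and the beta copies were also summed as pairs. The genes were followed in whole-brain RNA from 28 mouse libraries in a cuprizone study. Cuprizone is a copper chelator that, given in food, kills oligodendrocytes and removes myelin, which returns once feeding stops.

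By their labels, the libraries form 4 groups of 7. The naive (code CPZ0), demyelination (CPZ5) and remyelination (CPZ6+1) groups were TNFR1ff mice, which carry a floxed gene for the TNF receptor TNFR1 and were backcrossed onto C57BL/6. The knockout group (mgTNFR1KO, Cx3cr1-CreER.Tnfr1ff) was also at CPZ6+1 and differed by a tamoxifen-induced Cre, driven from Cx3cr1, that deletes TNFR1 in microglia. Cx3cr1 is also active in other cells of the myeloid lineage. The sources used here do not give the unit of the CPZ codes, the age of the mice, whether the TNFR1ff groups received tamoxifen or whether the vessels were perfused before dissection. The design text speaks of samples and not of separate animals, so p-values measure the spread between these samples, which may in part be technical.

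Libraries held between 1522928 and 3137262 expected counts, and 3 counts, the detection floor used here, equal 0.956 to 1.97 CPM depending on the library, where CPM is the usual measure of counts relative to library size. Levels below are CPM scaled by TMM, a normalisation that adjusts library totals for their composition. A gene without a symbol in the annotation used, ENSMUSG00000119584.1, took from 1.33% of the counts in knockout library 1 to 25.5% in naive library 1. All 5 markers each of neurons, oligodendrocytes, astrocytes and microglia were detected and tested, Syt1, Mbp and Slc1a2 among the most abundant, as the whole-brain label implies. The transcript of the targeted gene, Tnfrsf1a, lay between 16.5 and 30.4 CPM in knockout and between 15.6 and 28.8 CPM in remyelination libraries. Its log2 difference was -0.05 (SE 0.167, adjusted p = 0.961), and as a 3′ tag can lie outside a deleted segment this does not check the deletion. In bulk RNA, more cells of a type and more RNA per cell cannot be told apart.

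Haemoglobin is a tetramer of alpha and beta globin chains, each holding a haem group that binds oxygen. The chains are made in erythroid precursors of the bone marrow under the transcription factors GATA1 and KLF1, and their mRNA persists in reticulocytes, the youngest circulating red cells, after the nucleus is lost. Haem synthesis in these cells starts with ALAS2, while other cells use ALAS1. In brain tissue globin transcripts come with the blood in the vessels, and they have also been described in some neurons and glia. C57BL/6 mice carry the Hbb-s haplotype, in which the adult beta genes are Hbb-bs and Hbb-bt.

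The copies within each pair are nearly the same sequence, which bears on how reads were assigned. In the GENCODE M21 annotation of build GRCm38, Hba-a1 (ENSMUSG00000069919.8) lies on chromosome 11 from 32283511 to 32284465 and Hba-a2 (ENSMUSG00000069917.8) from 32296489 to 32297298, both on the plus strand. Hbb-bs (ENSMUSG00000052305.7) lies on chromosome 7 from 103826534 to 103827928 and Hbb-bt (ENSMUSG00000073940.4) from 103812524 to 103813996, both on the minus strand. Each has 3 exons. Alas2 (ENSMUSG00000025270.14) lies on chromosome X from 150547375 to 150570638 on the plus strand and has 11 exons. The authors' tables are on GRCm39, so these positions describe the annotation and not the read counting. The last 120 coding bases before the stop codon are shown because the single coding difference within each pair falls there, and it is the base in capitals.

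Hba-a1: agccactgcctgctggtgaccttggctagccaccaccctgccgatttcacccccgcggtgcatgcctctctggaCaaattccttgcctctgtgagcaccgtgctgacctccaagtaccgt
Hba-a2: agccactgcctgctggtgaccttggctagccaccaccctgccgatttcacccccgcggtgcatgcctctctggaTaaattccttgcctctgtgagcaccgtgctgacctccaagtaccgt
Hbb-bs: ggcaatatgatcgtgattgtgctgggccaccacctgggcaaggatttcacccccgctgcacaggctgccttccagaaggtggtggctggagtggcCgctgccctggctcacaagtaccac
Hbb-bt: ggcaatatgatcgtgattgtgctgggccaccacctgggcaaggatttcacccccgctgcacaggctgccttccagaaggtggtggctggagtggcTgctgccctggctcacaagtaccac

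Over the 426 coding bases the alpha copies differ by 1 substitution, and over the 441 coding bases the beta copies also differ by 1, a coding identity of 99.77% in both pairs. The ends that a 3′ tag reads differ more for the beta copies. Over the last 300 transcript bases, the alpha copies differ by 1 substitution in 284 aligned bases (99.65% identity). The beta copies differ there by 37 substitutions and 3 gap bases (86.67% identity). Coding sequences of an alpha and a beta gene, Hba-a1 and Hbb-bs, are 58.11% identical, far from the identity within a pair.

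The start regions of the members are shown because all 4 globin genes were higher in the knockout group than in naive brains, as given below. These are the 150 bases before each annotated start, from RefSeq on build GRCm38.p6, with 5 short motifs in capitals on either strand. The intervals are chr11:32283522-32283671 (plus strand) for Hba-a1, chr11:32296342-32296491 (plus) for Hba-a2, chr7:103827929-103828078 (minus) for Hbb-bs, chr7:103813924-103814073 (minus) for Hbb-bt and chrX:150547267-150547416 (plus) for Alas2. Apart from Hbb-bs, RefSeq places the starts downstream of those in GENCODE M21, so these windows reach into the gene intervals given above.

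Hba-a1: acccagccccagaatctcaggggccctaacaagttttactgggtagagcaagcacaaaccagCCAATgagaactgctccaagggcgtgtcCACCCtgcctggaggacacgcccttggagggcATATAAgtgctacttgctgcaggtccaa
Hba-a2: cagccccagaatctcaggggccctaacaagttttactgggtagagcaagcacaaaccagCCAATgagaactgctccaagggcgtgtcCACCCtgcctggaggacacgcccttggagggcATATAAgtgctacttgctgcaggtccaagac
Hbb-bs: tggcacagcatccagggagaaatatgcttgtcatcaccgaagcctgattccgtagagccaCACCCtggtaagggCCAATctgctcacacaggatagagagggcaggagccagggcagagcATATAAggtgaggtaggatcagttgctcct
Hbb-bt: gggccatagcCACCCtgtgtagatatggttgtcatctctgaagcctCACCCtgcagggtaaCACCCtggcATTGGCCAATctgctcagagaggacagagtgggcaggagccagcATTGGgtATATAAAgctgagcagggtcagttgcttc
Alas2: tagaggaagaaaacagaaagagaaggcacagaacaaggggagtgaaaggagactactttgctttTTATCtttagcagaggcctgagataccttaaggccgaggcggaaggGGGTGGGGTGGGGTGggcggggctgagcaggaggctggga

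The letters CACCC, bound by KLF1 and its relatives, are in 37.4% of all windows of this length. The promoter box with the letters CCAAT is in 24.5% of windows, and the GATA core, written GATAA, is in 13.3%. For the TATA box, the letters TATAAA are in 7.6% of windows and the shifted form ATATAA is in 5.4%. All 4 globin windows hold the KLF1 letters, the promoter box and the shifted TATA form, a combination present in 139 of 32851 windows (0.423%). The shifted TATA form was added to the search after the promoters had been read, and in Hbb-bt it overlaps TATAAA. The combination was thus defined from these windows, and its share is no test of them. The listed form TATAAA was in the Hbb-bt window alone. The Hba-a1 and Hba-a2 windows are nearly the same sequence, so their matches are not separate. The Alas2 window holds 1 GATAA and 3 CACCC, all on the minus strand, and neither CCAAT nor a TATA box. A match describes letters and is not evidence of binding.

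The globin transcripts were lowest in naive and demyelinated brains, higher in remyelination and highest in the knockout group. The 4 globin genes summed to a median of 360 CPM for naive (range 251 to 504), 326 for demyelination (314 to 407), 585 for remyelination (367 to 723) and 657 CPM for knockout libraries (514 to 1143). These sums were 0.0255 to 0.0516% of the counts in naive libraries and 0.0516 to 0.108% in knockout libraries. The lowest knockout library, at 514 CPM, lay just above the highest naive library, at 504, while remyelination libraries overlapped every other group. For each single globin and each pair sum, the knockout and naive ranges overlapped.

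**Figure D1:**
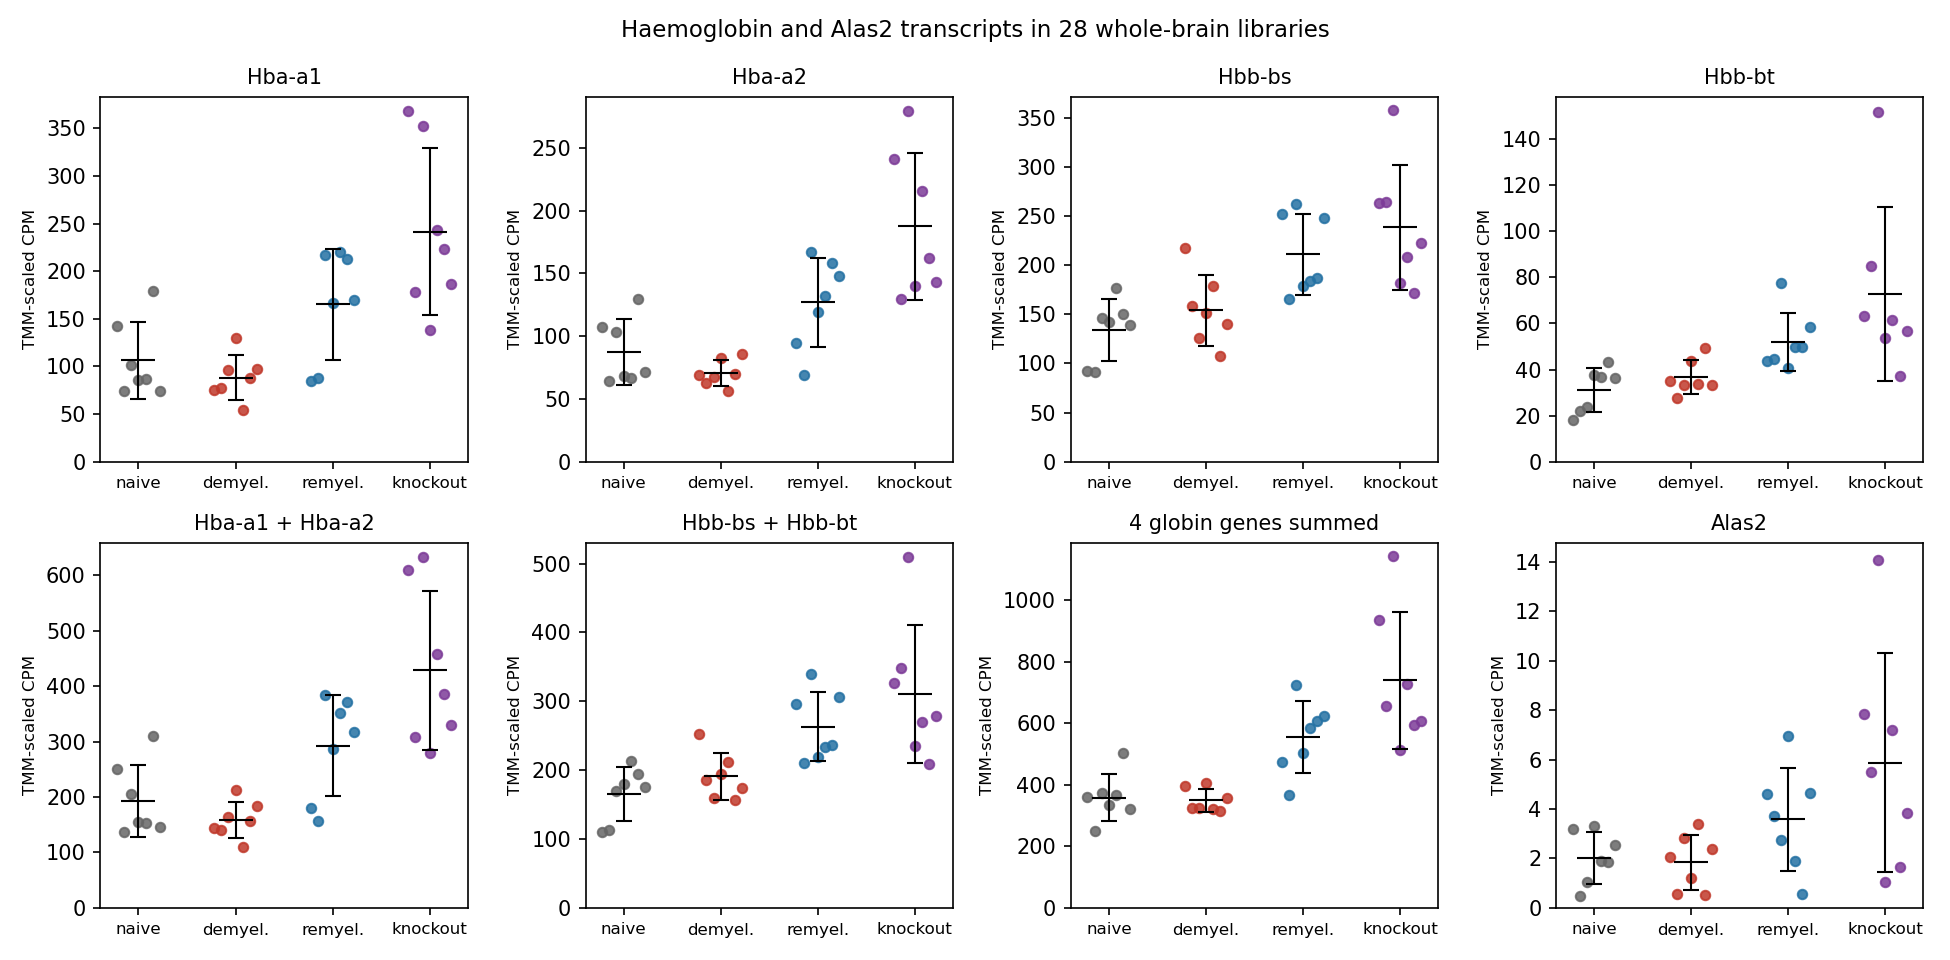
Level in TMM-scaled CPM (vertical axes, from 0) of the 4 globin genes, both pair sums, the sum of the 4 and Alas2 in each of the 28 libraries (points, 7 per group), with bars for the group mean and SD. Hba-a1, for example, runs from 73.7 to 179 CPM in naive and from 139 to 368 CPM in knockout libraries, while Alas2 has group means between 1.84 and 5.88 CPM.

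Among the alpha chains, Hba-a1 had a lowest, median and highest level of 73.7, 86.5 and 179 CPM in naive libraries and 54.0, 87.4 and 129 in demyelination libraries. In remyelination libraries it had 85.2, 170 and 220 CPM, and in knockout libraries 139, 223 and 368 CPM. Naive libraries 6 and 1 were high for their group, remyelination libraries 1 and 2 were low, and knockout libraries 1 and 3 were the highest of all 28. The knockout range overlapped the naive and remyelination ranges but lay wholly above the demyelination range.

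By group mean, Hba-a2 followed the same order of groups as Hba-a1, at slightly lower levels. Its lowest, median and highest levels were 64.0, 71.3 and 130 CPM in naive, 56.4, 69.4 and 86.1 in demyelination, 68.6, 132 and 167 in remyelination and 130, 162 and 280 in knockout libraries. As mean ± SD (n = 7), it was 87.3 ± 26.1, 70.7 ± 10.5, 127 ± 35.4 and 187 ± 58.2 CPM. The demyelination libraries varied least, and no knockout library fell within their range.

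Summed, the alpha pair gave 138, 154 and 309 CPM as lowest, median and highest in naive libraries and 110, 157 and 212 in demyelination libraries. The corresponding levels were 156, 318 and 384 CPM in remyelination and 279, 385 and 632 CPM in knockout libraries. Naive library 6, at 309 CPM, lay above 3 of the 7 remyelination libraries. The sum is the safer value, since the reads of both copies enter it however they were divided.

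Among the beta chains, Hbb-bs is the major and Hbb-bt the minor gene of this haplotype. Hbb-bs had a lowest, median and highest level of 91.7, 143 and 177 CPM in naive, 108, 151 and 218 in demyelination, 166, 187 and 262 in remyelination and 172, 223 and 358 in knockout libraries. Naive libraries 1 and 2 were the lowest of all and knockout library 3 the highest. In each of the remyelination and knockout groups, 6 of 7 libraries lay above the highest naive library.

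Hbb-bt was the least abundant of the 4 globins, at 18.3, 36.4 and 43.5 CPM in naive and 27.8, 33.8 and 49.5 CPM in demyelination libraries. It reached 40.5, 49.9 and 77.6 CPM in remyelination and 37.4, 61.5 and 152 CPM in knockout libraries. Knockout library 3 stood far above the other 6 of its group, the next of which was at 84.8 CPM. All 4 groups overlapped with at least 1 other in this gene.

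As a pair, the beta genes had a lowest, median and highest level of 111, 175 and 213 CPM in naive, 157, 186 and 253 in demyelination, 211, 237 and 340 in remyelination and 209, 279 and 510 in knockout libraries. In both the remyelination and the knockout group, 6 of 7 libraries lay above the highest naive library. Demyelination library 1, at 253 CPM, was the highest of its group.

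Alas2 was close to the floor of detection. It had 26 counts in the 7 naive libraries together (1 to 6 per library), 27 in demyelination (1 to 7), 56 in remyelination (1 to 13) and 85 in knockout libraries (2 to 27). Its levels were 2.04 ± 1.05, 1.84 ± 1.12, 3.59 ± 2.09 and 5.88 ± 4.44 CPM (mean ± SD, n = 7). The order of the group means was that of the alpha genes, but the ranges of all groups overlapped, and knockout library 3, again the highest, reached 14.1 CPM. Alas2 did not pass the filter on low counts and had no test in the model; 4 of the 5 members did.

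All tests below are edgeR quasi-likelihood tests in a fit of all 28 libraries, with p-values adjusted by the Benjamini-Hochberg method over 12424 genes, and a gene was called changed below 0.05. Fold changes carry unadjusted 95% confidence intervals. The 6 comparisons reuse the same 4 groups, so those with a group in common are not independent of each other. The number of globins called is read beside the percentage of all tested genes called. Copies of a pair share reads, so their calls are not separate results. Ranges that do not overlap are given as descriptions only, since their share over all tested genes was not counted.

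Did the globin transcripts change at the peak of demyelination? None of the 4 was called against naive, where 1.30% of all tested genes were called higher and 0.700% lower, and none reached an unadjusted p under 0.05. The alpha pair was 0.822 times the naive level (interval 0.629 to 1.07, adjusted p = 0.581) and the beta pair 1.15 times (0.932 to 1.42, adjusted p = 0.623). The estimates lay on either side of no change and their intervals allow modest differences in both directions. In DESeq2 the pairs were not called either.

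In remyelination against naive, Hbb-bs rose, and it was the only 1 of the 4 globins called, where 0.451% of all tested genes were called higher (0.628% in either direction). Its log2 fold change was +0.65 (SE 0.154, adjusted p = 0.0278). The beta pair was 1.59 times the naive level (interval 1.29 to 1.96, log2 +0.66, SE 0.154, adjusted p = 0.0228). Left out singly, naive library 1 or 2 or remyelination library 3 or 7 ended this call for the pair, with adjusted p up to 0.0879, as did leaving out naive 1 and knockout 1 together (0.0669). For Hbb-bs alone the call ended without naive library 1, 2 or 4 or remyelination library 3 or 7, with adjusted p up to 0.108.

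The other globins had estimates of like size in that comparison that did not pass. Log2 values were +0.64 for Hba-a1 (SE 0.219, adjusted p = 0.212), +0.54 for Hba-a2 (SE 0.179, adjusted p = 0.192) and +0.72 for Hbb-bt (SE 0.215, adjusted p = 0.122). The alpha pair was 1.51 times the naive level (interval 1.16 to 1.96, adjusted p = 0.178). With no filter on low counts, the alpha pair (adjusted p = 0.00641), both its copies and Hbb-bt were called there, and the cause was not tested. The median log2 fold change of the tested members was +0.64, beside 0.00 over all genes. A difference between the alpha and the beta response was not tested.

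In remyelination against demyelination, the alpha genes were called higher, while the beta genes, with higher estimates too, were not called. A difference between the alpha and the beta response was not tested here either. Hba-a1 (log2 +0.91, SE 0.220, adjusted p = 0.0483) and Hba-a2 (+0.83, SE 0.180, adjusted p = 0.0144) were called, 2 of 4 where 0.201% of all tested genes were called higher (0.386% in either direction). Reads were divided between these copies, so the 2 calls are not separate. The alpha pair was 1.84 times the demyelination level (interval 1.41 to 2.39, adjusted p = 0.0199), and 5 of 7 remyelination libraries lay above the highest demyelination library. The beta pair was 1.38 times that level (interval 1.12 to 1.70, adjusted p = 0.353).

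These alpha calls depended on single libraries. Without demyelination library 2 or 5, or without remyelination library 3, 5, 6 or 7, the call of the alpha pair ended, with adjusted p up to 0.0738. That of Hba-a1 ended in 11 of 14 such fits, with adjusted p up to 0.154, and that of Hba-a2 without remyelination library 3 or 6, at up to 0.0638. Hba-a1 was also not called with DESeq2 or when counts were scaled by library totals.

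**Figure D2:**
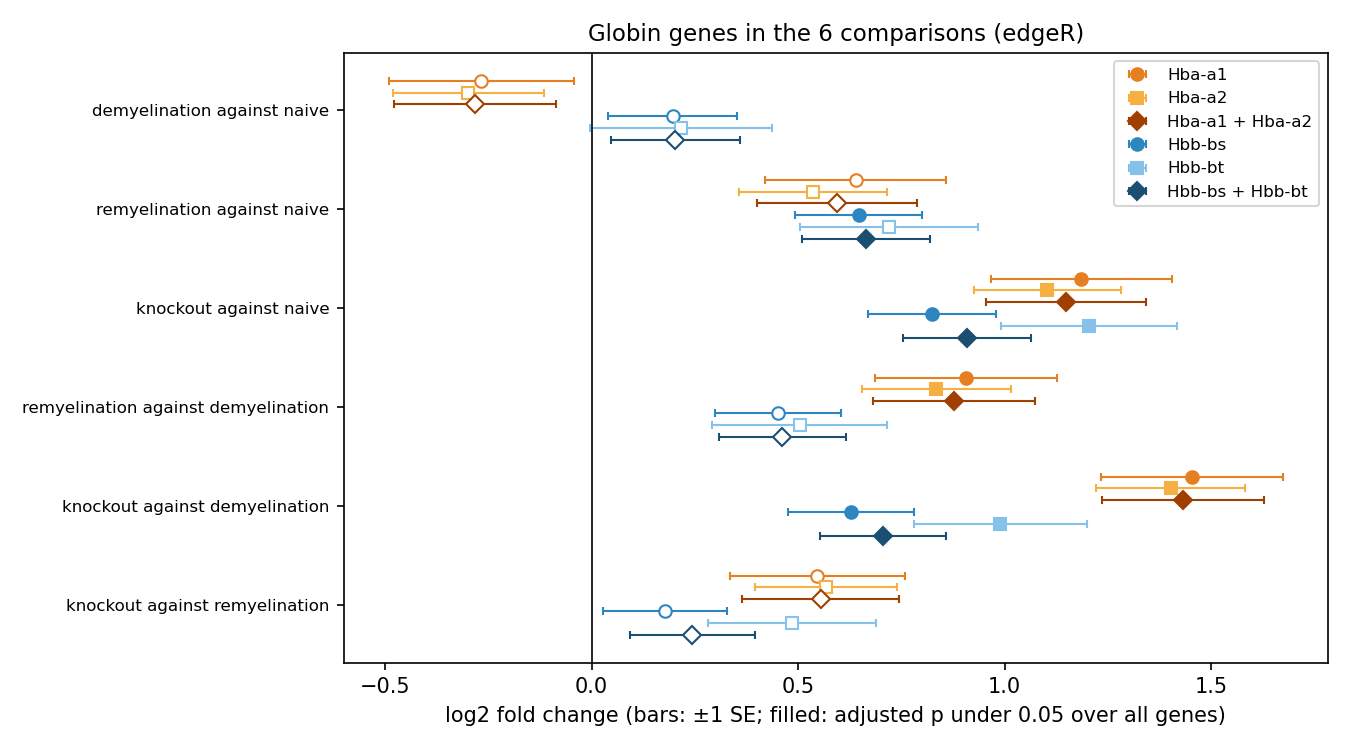
Log2 fold change of the 4 globin genes and both pair sums in the 6 comparisons of the 4 groups, with bars of 1 SE on the horizontal axis and called values filled. The knockout group against naive and against demyelination has every value above 0 and called, from +0.63 to +1.45, while no value is called for demyelination against naive or knockout against remyelination.

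In the knockout group against naive, all 4 globins rose, where 1.54% of all tested genes were called higher (3.24% in either direction). Hba-a1 rose by log2 +1.19 (SE 0.218, adjusted p = 0.00102) and Hba-a2 by +1.10 (SE 0.178, adjusted p = 0.000147). Hbb-bs rose by +0.82 (SE 0.154, adjusted p = 0.00124) and Hbb-bt by +1.21 (SE 0.213, adjusted p = 0.000552). Both kinds of chain rose, and the median of the 4 tested members was +1.14 beside 0.00 over all genes.

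The alpha pair reached 2.22 times the naive level (interval 1.70 to 2.89, adjusted p = 0.000289) and the beta pair 1.88 times (1.52 to 2.32, adjusted p = 0.000308). Of the 7 knockout libraries, 5 lay above the highest naive library for the alpha and 6 for the beta pair. Both pairs stayed called in each of the 14 fits that left out 1 library and in all other settings tried. This comparison joins the stage and the genotype, which cannot be told apart in it.

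Against demyelination the knockout group was again higher in all 4 globins, where 0.370% of all tested genes were called higher (0.604% in either direction). Hba-a1 rose by log2 +1.45 (SE 0.220, adjusted p = 6.22e-05), Hba-a2 by +1.40 (SE 0.180, adjusted p = 2.02e-06), Hbb-bs by +0.63 (SE 0.153, adjusted p = 0.0358) and Hbb-bt by +0.99 (SE 0.210, adjusted p = 0.00970). The alpha pair was 2.70 times the demyelination level (interval 2.07 to 3.52, adjusted p = 8.76e-06), and the groups did not overlap. The beta pair was 1.63 times that level (1.32 to 2.01, adjusted p = 0.0130) with 5 of 7 knockout libraries above the demyelination range.

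Knockout library 3 decided part of the beta result. Without it the call of the beta pair ended (adjusted p = 0.0702), as did that of Hbb-bt (adjusted p = 0.0564). The call of Hbb-bs ended in 9 of 14 fits that left out 1 library, with adjusted p up to 0.142, and when counts were scaled by library totals. The alpha calls held in every such fit.

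The comparison of the knockout group with remyelination, at the same CPZ code, joins the deletion with the Cx3cr1-CreER allele and any difference in tamoxifen, which cannot be told apart. Cx3cr1 itself was lower in the knockout group, at 26.1 ± 11.8 against 48.9 ± 7.81 CPM (log2 -0.89, SE 0.183, adjusted p = 0.0367). None of the 4 globins was called, where 0.0483% of all tested genes (6 genes) were called in either direction. The alpha pair was 1.47 times the remyelination level (interval 1.13 to 1.90, adjusted p = 0.537) with 4 of 7 knockout libraries above the highest remyelination library. With no filter on low counts it was called (adjusted p = 0.0429), as was Hba-a2, and the cause was not tested. The beta pair was 1.18 times that level (0.964 to 1.45, adjusted p = 0.739) with 2 of 7 above. Single genes had log2 values of +0.55 (Hba-a1), +0.57 (Hba-a2), +0.18 (Hbb-bs) and +0.49 (Hbb-bt), of which 3 had an unadjusted p under 0.05. The share of all tested genes under that unadjusted limit was not counted. The unadjusted interval of the alpha pair lay above equal levels, while that of the beta pair included them. An adjusted p above the threshold does not show that the genotypes had the same level.

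Tested without the filter on low counts, an alternative added after the data were seen, Alas2 was not called in any comparison. Its log2 estimates were +1.54 for knockout against naive (SE 0.505, adjusted p = 0.0957), +1.60 against demyelination (SE 0.502, adjusted p = 0.140) and +0.84 for remyelination against naive (SE 0.521, adjusted p = 0.583). For knockout against remyelination it was +0.70 (SE 0.464, adjusted p = 0.661), and for demyelination against naive -0.07 (SE 0.568, adjusted p = 1). The SE was more than 2 times that of any globin gene, as the few counts allow.

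The levels of alpha and beta transcripts were compared within libraries, as ratios of counts with no test. Alpha counts exceeded beta counts in 18 of 28 libraries: 4 naive, 3 demyelination, 5 remyelination and 6 knockout. The lowest, median and highest ratio of alpha to beta was 0.716, 1.21 and 2.26 in naive, 0.522, 1.00 and 1.08 in demyelination, 0.609, 1.13 and 1.57 in remyelination and 0.883, 1.24 and 1.86 in knockout libraries. The groups overlapped widely. Naive library 1, which also had the largest share of ENSMUSG00000119584.1, had the highest ratio.

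**Figure D3:**
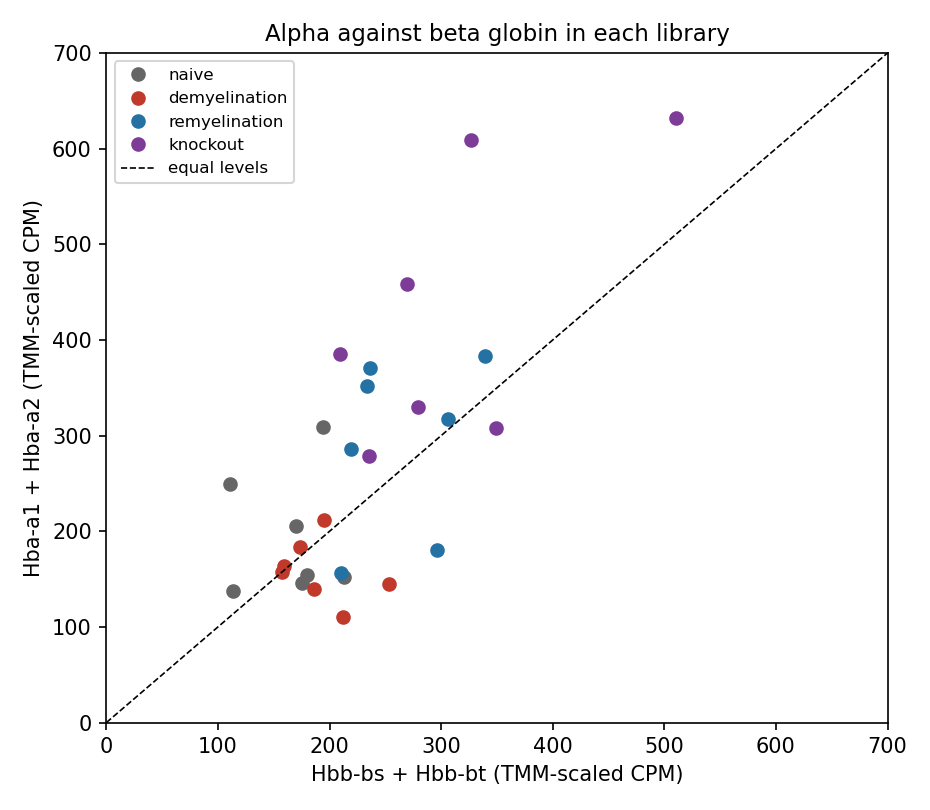
Level of the alpha pair (Hba-a1 plus Hba-a2, vertical) against that of the beta pair (Hbb-bs plus Hbb-bt, horizontal) in TMM-scaled CPM, with a point for each of the 28 libraries coloured by group and a dashed line of equal levels. Knockout libraries 1 and 3 lie highest, at 609 and 632 CPM of alpha, and 18 of 28 libraries have more alpha than beta counts.

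Across the 28 libraries the log2 levels of both pairs were related (Pearson r = 0.635, permutation p = 0.00029, adjusted over 5 relations 0.00145). Spearman's rho was 0.584 (permutation p = 0.00137, adjusted 0.00685). The permutations of all 5 relations ignored the groups, so differences between groups that both measures share enter these p-values. Without knockout libraries 1 and 3, farthest from the median of the alpha pair, r was 0.492. The relation was weaker within groups: r was 0.223 for deviations from the group means. Within groups of 7 it was -0.00496 in naive, -0.354 in demyelination, 0.288 in remyelination and 0.592 in knockout libraries.

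Within the pairs, the share of each copy had a similar median in the 4 groups. Hba-a2 held 37.5 to 52.6% of the alpha counts, with group medians from 43.4% to 44.9%, and was the minor copy in 24 of 28 libraries. Hbb-bt held 13.8 to 31.7% of the beta counts, with group medians from 19.0% to 22.8%. The widest 95% Wilson intervals of a library's share spanned 12.8 and 12.3 percentage points, and these intervals cover counting error only.

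**Figure D4:**
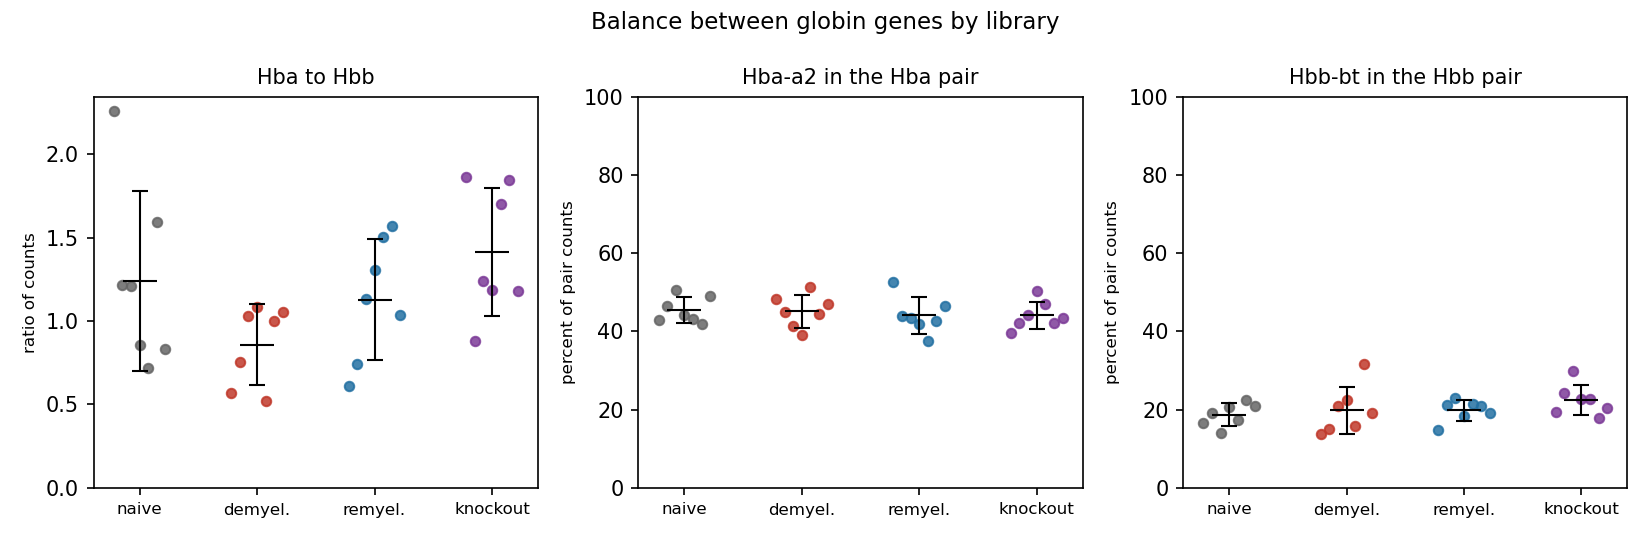
Ratio of alpha to beta counts, share of Hba-a2 in the alpha counts and share of Hbb-bt in the beta counts (both in percent) in each of the 28 libraries by group, with bars for the group mean and SD. The ratio runs from 0.522 to 2.26, the alpha share lies between 37.5 and 52.6% and the beta share between 13.8 and 31.7%, with overlapping ranges in all 4 groups.

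How the reads of the copies were assigned can be seen in the expected counts. Both pair sums were whole numbers within 0.015 in 28 of 28 libraries, while the single copies were whole in 0 of 28. Reads were thus divided between the copies of a pair, and the sums left no fraction of a read to another gene within that tolerance. The shares above are therefore estimates of the counting model, and those of the alpha copies, whose ends are almost the same, are the less certain.

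Of 10 other globins listed, cytoglobin alone was abundant enough to be tested. The genes Hba-x, Hbb-bh0, Hbb-bh1 and Hbb-bh2, which are embryonic genes or relatives of them, had 0 counts in all 28 libraries, and embryonic Hbb-y had 2. Neuroglobin, Ngb, a globin of neurons, had 194 counts in all. Cygb, cytoglobin, is a globin of fibroblast-like cells and some neurons. Its mean level was 84.0, 88.6, 95.9 and 115 CPM in naive, demyelination, remyelination and knockout libraries, and it was not called for knockout against naive (log2 +0.45, adjusted p = 0.0636).

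Of 14 further genes of haem synthesis and iron import into mitochondria, 13 were tested and only Urod was called in any comparison. Urod, uroporphyrinogen decarboxylase, rose in knockout against naive from 20.5 ± 5.76 to 32.9 ± 8.16 CPM (log2 +0.70, SE 0.183, adjusted p = 0.0261). In that comparison 6 of the 13 had an unadjusted p under 0.05, and the list's median was +0.21 beside 0.00 over all genes. The share of all tested genes under that unadjusted limit was not counted, so the 6 are a description only. The most abundant were Tmem14c, which carries haem intermediates in mitochondria, and Alas1, the form of the first enzyme used outside erythroid cells. Alas1 was at 50.1, 63.5, 61.8 and 65.4 CPM in the order of groups above and was not called for knockout against naive (log2 +0.39, adjusted p = 0.174).

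Among regulators of erythroid precursors, Gata1 and Gfi1b had 0 counts in all 28 libraries, Nfe2 had 2 and Klf1 11. Others were detected: the erythropoietin receptor gene Epor had 142 counts, Tal1 had 178 and Lmo2 had 805, and Tal1 and Lmo2 are also expressed in endothelial cells. Of the 9 regulators 3 were tested and none was called in any comparison. The most abundant, Bcl11a and Zfpm1, are also expressed in neurons or other brain cells.

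Red cell membrane and maturation genes were scarce as well where they are specific to the lineage. Of 26 listed genes, 25 were matched, and 4 of these had 0 counts, Rhag, Trim58 and Kel among them. Slc4a1, the anion exchanger of the red cell membrane, had 3 counts in all, Car1 had 5 and Epb42 had 6. Of the 11 tested, only Car2 was called, lower in demyelination than in naive (log2 -0.72, adjusted p = 0.0279). Car2, a carbonic anhydrase, is also a gene of oligodendrocytes. Bnip3l and Prdx2, the most abundant, are expressed widely.

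Among 14 genes that clear haem and haemoglobin or store iron, 9 were tested and only Ftl1, the ferritin light chain, was called. It rose from 83.8 ± 7.78 CPM in naive to a mean of 122 in demyelination (log2 +0.54, adjusted p = 0.00301). It was also higher in remyelination, at 118 CPM (+0.50, adjusted p = 0.0174), and in the knockout group, at 123 CPM (+0.55, adjusted p = 0.00447). Ftl1 rose already at demyelination, the stage at which no globin was called. Its partner Fth1 was near 2544, 2579, 2447 and 2524 CPM in the 4 groups. Haem oxygenase Hmox1 had 0 counts, and the haemoglobin scavenger receptor Cd163 had 23.

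Other blood cells were traced with 25 markers of white blood cells and platelets, of which 3 were tested and none was called. Their summed levels were 127 to 200.4 CPM for naive, 102 to 203 for demyelination, 104 to 226 for remyelination and 144 to 229.9 CPM for knockout libraries. The neutrophil gene S100a8 had 17, 8, 44 and 17 counts in those groups, S100a9 had 10, 6, 31 and 12, and the platelet gene Pf4 had 28, 44, 54 and 41. Among lymphocyte genes, Cd3d had 0 counts, while the T cell receptor gene Trbc2 and the immunoglobulin gene Ighm were tested. Trbc2 was at 5.84, 6.74, 6.02 and 6.89 CPM and Ighm at 15.4, 11.1, 16.1 and 14.1 CPM in the 4 groups in the same order. Gp1bb, which led this list, shares its locus with a neighbouring neuronal septin gene, so its level is uncertain. The summed levels above include Gp1bb and are uncertain for the same reason. The part of blood content in the globin result was not tested.

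Vessel markers were endothelial and mural genes. For knockout against naive, 2 of 18 tested endothelial and 1 of 7 tested mural genes were called higher, beside 1.54% of all tested genes. Of 20 endothelial genes 18 were tested, with a median log2 fold change of +0.21 for knockout against naive and summed levels of 758 to 894 CPM in naive and 866 to 987 CPM in knockout libraries. Slc2a1, the glucose transporter of the blood-brain barrier, was called there (+0.41, adjusted p = 0.0324), and also in demyelination against naive (+0.48, adjusted p = 0.00846). Ly6a was called at +0.80 (adjusted p = 0.00713). Of 12 mural genes 7 were tested and only Vtn was called, for knockout against naive (+0.52, adjusted p = 0.0485). The median over the 7 mural genes was -0.03 in that comparison. Summed mural levels were 114 to 173 CPM in naive and 155.5 to 206.5 CPM in knockout libraries.

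Meningeal and choroid plexus genes were followed because these tissues carry many vessels. Of 17 listed, 12 were tested. Ttr, transthyretin of the choroid plexus, was higher in knockout than in naive libraries (+0.56, adjusted p = 0.0248), and Prlr was lower in remyelination (-0.77, adjusted p = 0.0322) and knockout (-0.68, adjusted p = 0.0328). Over the 28 libraries the mean log2 level of endothelial genes and that of the beta pair had r = 0.354 (permutation p = 0.0641, adjusted 0.160) and rho = 0.249. Without demyelination library 7 and naive library 1 that r was 0.148, and for deviations from group means it was -0.0133. Within groups the endothelial r was 0.74 in naive, -0.332 in demyelination, -0.54 in remyelination and -0.361 in knockout libraries. The mural mean had r = -0.0547 with the beta pair. Relations of the alpha pair with these vessel genes were not computed. The part of vessel content in the globin result was not tested.

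Neither library depth nor the share of the most abundant gene had a relation with the beta pair that passed its test. With the library total, r was 0.152 (permutation p, adjusted over 5 relations, 0.549) and rho 0.0744. With the share of ENSMUSG00000119584.1, r was -0.220 (adjusted p = 0.429) and rho 0.0980. For deviations from group means that r was -0.351, and within groups it ran from -0.601 in naive to -0.0722 in knockout libraries. Relations of the alpha pair with depth or with this share were not computed.

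Genes whose log2 CPM over the 28 libraries was most like that of the beta pair were sought among 9425 tested genes with a mean of at least 10 CPM. The 5 with the highest Pearson r, members left out, were Rpl3 (r = 0.71), Apod (0.706), Cox5b (0.635), Idh3b (0.634) and Atpif1 (0.624). Over deviations from group means they were Cul2 (0.657), Idh3b (0.655), Nup35 (0.637), Arhgef28 (0.624) and Phospho2 (0.623). Rpl3 encodes a ribosomal protein, Apod the lipid carrier apolipoprotein D, and Cox5b, Idh3b and Atpif1 mitochondrial proteins. Idh3b is in both sets. The alpha genes had r = 0.60 (Hba-a1) and 0.667 (Hba-a2) with the beta pair over the 28 libraries. Over deviations from group means, r was only 0.17 for Hba-a1 and 0.291 for Hba-a2. These values are a description over libraries that share depth and groups.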

How the data were processed

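Whole-brain RNA of 28 mouse samples (4 groups of 7) was isolated with TRIzol, and 381 to 448 ng per sample went into QuantSeq 3′ FWD libraries, per the labels' protocols. Per the submitters' processing notes the tools were cutadapt, FastQC, STAR, RSEM and edgeR with build GRCm39. Their versions, settings, strand option and annotation release were not given in the sources used here. Each deposited table holds RSEM expected counts per gene, not normalised, per the file headers. The TPM and FPKM columns the authors deposited beside them were not used, since 3′ tags need no length correction. Between 89.8 and 92.0% of nonzero expected counts were whole within 0.005, and all were rounded before testing.

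Symbols came from GENCODE M21 by identifier (52081 of 55414 matched). Counts were normalised by TMM, filtered by filterByExpr, and tested with glmQLFit and glmQLFTest (R 4.3.3 with edgeR 4.0.16), fitting the 28 libraries together with a mean per group and no block. The pair sums were tested in a table of 12422 genes where they replaced their copies, with p adjusted over it. The common biological coefficient of variation was 19.5%. The fits were tested on simulated counts. Levels are CPM scaled by the TMM factors.

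Members, pairs and lists were chosen with earlier results of these data known, so no p is adjusted over a list. The genes named are all members, from each list the called genes (at most 4 per comparison) and the 2 most abundant, and the 5 most like the beta pair. No library was a duplicate of another of its group by a chi-square test of the 84 within-group pairs, whose statistic was at least 2.53 per degree of freedom. Alternatives were DESeq2 1.42.0, library totals in place of TMM, DESeq2 size factors in edgeR, no filter, the most abundant gene left out, the replicate number as a block, each library left out, and naive 1 with knockout 1 left out. A few genes that the naming rule or the lists would give are not reported here.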

Additional observations from a re-analysis of the deposited data

Results flagged for a closer look

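Of 40 sets of 7 libraries examined (the levels and ratios of the members in each group), 1 held a library far from the rest. Hbb-bt in knockout library 3 was at 151.8 CPM, while the next highest of the group was at 84.8 CPM and the lowest at 37.4 CPM. The gap to the next library was 0.586 of the whole range, above the limit of Dixon's test at the 95% level. Chance alone gives about 1 such case in 20 groups. The same library was the highest of its group for Hba-a2, Hbb-bs and Alas2, and without it the call of Hbb-bt for knockout against demyelination ended (adjusted p = 0.0564, edgeR quasi-likelihood test).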

How the results depend on the processing

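No result changed direction under any alternative run. The knockout group's higher alpha and beta pairs against naive were called in every alternative, as was the alpha pair against demyelination. With no filter, the alpha pair passed for knockout against remyelination (log2 +0.55, adjusted p = 0.0429) and for remyelination against naive (+0.60, adjusted p = 0.00641), and the cause was not tested. Without naive 1 and knockout 1 together, the beta pair in remyelination against naive was at +0.59 (adjusted p = 0.0669). Leaving out single libraries gave +0.59 to +0.73 for that result, +0.80 to +0.98 for the alpha pair in remyelination against demyelination and +0.55 to +0.79 for the beta pair in knockout against demyelination.

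Counts of called genes moved more. For knockout against naive, 403 genes became 644 without naive 1 and knockout 1, 243 with library totals (138 higher and 105 lower, against 191 and 212) and 147 (without knockout 7) to 738 (without knockout 1) when single libraries were left out, 7 of which moved it by over 1.5 times. For knockout against demyelination, 75 became 163 with no filter and 48 (without demyelination 6) to 93 without single libraries. For knockout against remyelination, 6 became 13 with DESeq2 and 28 with no filter. For remyelination against demyelination, 48 became 73 with DESeq2. For remyelination against naive, 78 became 132 with DESeq2, 122 with no filter and 58 to 154 (without remyelination 1) without single libraries.

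With the replicate number as a block, called genes were 608 for knockout against naive and 147 for remyelination against naive, and the block changed no call of a globin gene or pair. Whether replicate numbers pair these samples was not tested. Same-numbered libraries' deviations correlated between -0.131 and 0.302, and 1 to 5 of 14 libraries in a comparison correlated best with their own number. Depth limits the precision for Alas2 and the lineage-specific red cell genes, whose counts were under the filter.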
